A study of Mus musculus with 2 samples.

Results

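The genes described here are 10 immediate early genes: the Fos family (Fos, Fosb, Fosl1, Fosl2) and the Jun family (Jun, Junb, Jund), whose proteins make up the transcription factor AP-1, together with Egr1, Ier2 and Dusp1. They were chosen by name, as the probes whose symbol in the array's annotation is one of these, with the brightest probe per gene. Of the 10, 9 had a probe, each gene a single one, among 16444 genes named by the annotation. Jund is not among the names matched, so it was not analysed here.

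The study compared mouse embryonic stem (ES) cells whose gene AU019823 carried a gene trap (a cassette that cuts its transcripts short) in both copies with revertant cells of the same gene, which the labels call almost identical to wild-type. Both were grown on OP9, a mouse bone marrow stromal line, and the cells that carried Flk-1, the product of Kdr and a marker of early mesoderm, were collected by flow sorting. RNA came from 350000 revertant cells (code cl.4, day 4.5) and 300000 gene-trapped cells (code cl.3, day 4.5), while the protocol gives 4 days of coculture. Each group has 1 array, so code and genotype cannot be told apart, every value below compares these 2 libraries only, and no p-value or error between cultures can be given.

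Immediate early genes are transcribed within minutes of a stimulus without new protein synthesis, because the factors that switch them on are already present and are activated by phosphorylation through the mitogen-activated protein (MAP) kinase cascades. Fos proteins bind DNA only as partners of another leucine zipper protein, commonly a Jun protein, whereas Jun proteins can also pair with each other. The resulting AP-1 dimers bind the TPA response element, TGANTCA with a central C or G. Fos, Jun and Egr1 are also known to be induced by handling and dissociation of cells, and FGF signalling through ERK, a known inducer of Egr1 and Fos, is used in early mesoderm.

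Signals are the median brightness of a spot in the Cy5 channel. A probe counted as above background when its spot exceeded the mean of the blank spots by more than 2 SD, a limit of 24.99 for revertant and 22.26 for gene-trapped cells. Of 23471 probes, 83.95% of the revertant and 82.6% of the gene-trapped array exceeded it, and the median probe signals were 47.5 and 38.59 in that order. Differences are gene-trapped minus revertant on the log2 scale after background correction with an offset of 50 and quantile normalization, so a value of 1 is 2-fold, and folds of dim spots are understated. Before scaling, the median gene was at -0.26. A scaled difference is therefore read relative to that shift, and it was 0.01 for the median gene after scaling. The only repeated spots are 2 kinds of positive control with 24 spots each, whose log2 ratios had SDs of 0.109 and 0.108, a technical spread within arrays and not between cultures. AU019823 itself had spot signals of 486.23 (revertant) and 296.69 (gene-trapped) and a log2 difference of -0.39. Where its probe lies relative to the trap is unknown, so that value does not check the labels.

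The 4 promoters below are shown because Fos and Jun are the pair with negative differences, while Junb and Dusp1, from the same windows of RefSeq, had positive ones. Each line gives the strand of the gene, 5′ to 3′, from 250 bases before to 50 bases after the RefSeq start in build GRCm38.p6. Capitals mark matches, on either strand, to 6 motifs. TGACNTCA is a pattern that takes in the cAMP response element and that ATF, CREB and Jun-ATF dimers bind. TGANTCA is the AP-1 site, and the CArG box is bound by serum response factor. The others are the GC box GGGCGG bound by Sp1, the TATA box TATAAA and CCAAT. The windows lie on chr12:85473640-85473939 (Fos, plus strand), chr4:95052173-95052472 (Jun, minus strand), chr8:84978699-84978998 (Junb, minus strand) and chr17:26508423-26508722 (Dusp1, minus strand).
Fos: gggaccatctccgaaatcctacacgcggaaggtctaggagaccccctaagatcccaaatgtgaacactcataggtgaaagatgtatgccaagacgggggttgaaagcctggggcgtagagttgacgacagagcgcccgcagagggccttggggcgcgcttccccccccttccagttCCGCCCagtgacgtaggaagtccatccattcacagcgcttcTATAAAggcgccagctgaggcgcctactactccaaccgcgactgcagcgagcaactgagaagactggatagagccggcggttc
Jun: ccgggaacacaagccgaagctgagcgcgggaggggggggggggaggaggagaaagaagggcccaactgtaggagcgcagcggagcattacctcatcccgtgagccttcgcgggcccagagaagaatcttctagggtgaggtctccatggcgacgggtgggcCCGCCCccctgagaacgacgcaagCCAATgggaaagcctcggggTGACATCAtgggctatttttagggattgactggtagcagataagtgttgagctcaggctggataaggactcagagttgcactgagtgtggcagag
Junb: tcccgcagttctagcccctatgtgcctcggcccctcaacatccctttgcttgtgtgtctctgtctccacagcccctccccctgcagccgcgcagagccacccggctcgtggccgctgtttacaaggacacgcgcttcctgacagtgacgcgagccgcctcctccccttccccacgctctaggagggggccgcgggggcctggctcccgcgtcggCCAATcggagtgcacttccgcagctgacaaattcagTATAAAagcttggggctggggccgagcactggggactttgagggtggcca
Dusp1: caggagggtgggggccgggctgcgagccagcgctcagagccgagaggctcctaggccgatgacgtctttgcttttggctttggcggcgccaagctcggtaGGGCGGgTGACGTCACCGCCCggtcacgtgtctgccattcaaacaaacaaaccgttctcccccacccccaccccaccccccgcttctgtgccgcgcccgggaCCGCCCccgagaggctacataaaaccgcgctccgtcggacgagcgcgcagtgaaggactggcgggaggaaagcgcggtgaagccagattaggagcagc

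In the Fos window the capitals are a GC box on the opposite strand at bases 177 to 182 and a TATA box at 218 to 223. Only full matches were marked. The stretch tgacgtag just after that GC box differs from TGACNTCA in its last letters, so it was not counted. Jun had a TGACNTCA match with a central A at bases 206 to 213, a GC box at 162 to 167 and CCAAT at 186 to 190. Junb had CCAAT at 215 to 219 and a TATAAA match at 251 to 256, which begins at the RefSeq start itself. In Dusp1 a cAMP response element at bases 108 to 115 lay between GC boxes at 101 to 106 and 116 to 121, with another GC box at 203 to 208. Of all 32851 promoter windows of this length, 8.83% held TGACNTCA, 35.7% GGGCGG, 13.6% TATAAA and 37.4% CCAAT. The AP-1 site in the form TGANTCA (7.81% of windows) and the CArG box (1.63%) had no match in the 7 member windows searched. Those were the windows of Fos, Fosb, Fosl2, Jun, Junb, Jund and Dusp1. No window of Egr1, Fosl1 or Ier2 was searched, so nothing is known here of their motifs. The known serum response element of Fos lies upstream of this window. A match is a run of letters and not a site shown to be bound. Of the motifs searched, Fos and Jun shared the GC box, which the windows of Dusp1, Fosb and Fosl2 also held.

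In the main setting no member reached the folds used as limits here. All 9 members exceeded the background limit on both arrays. None was 2-fold higher (0 of 9, beside 0.334% of the 13753 named genes that also exceeded both limits), and none was 2-fold lower (0 of 9, beside 1.08%). At 1.5-fold the counts were again 0 and 0, beside 2.28% and 3.52%. By direction, 7 members lay above 0 and 2 below, while among all those genes 7334 (53.3%) lay above and 6407 below. The members' median was 0.19. Without scaling it was -0.04, with 4 above 0 and 5 below, and the median of all genes -0.26, with 1750 above and 12003 below. Counts above and below 0 in any list therefore rest on the scaling. These counts describe how 9 probes lay on 1 pair of arrays and are not a test.

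**Figure D1:**
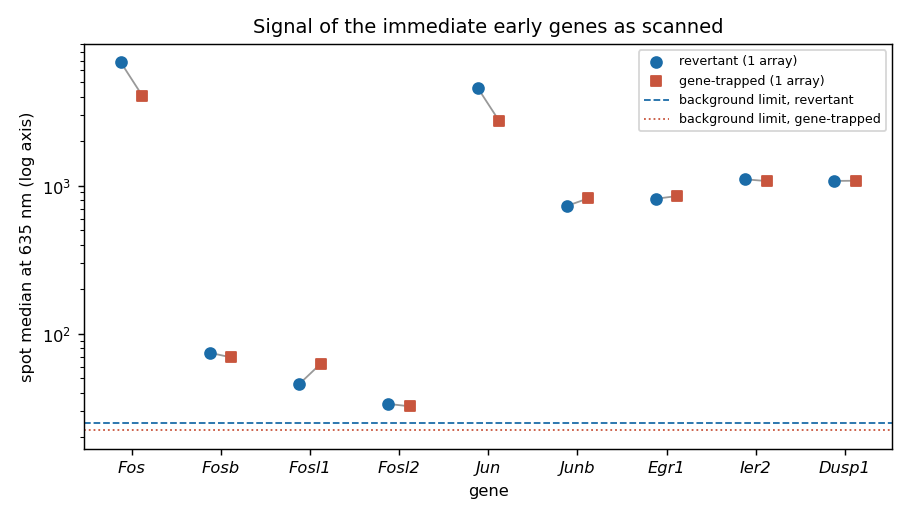
Spot median in the Cy5 channel (log axis) of the 9 immediate early genes as scanned, with circles for the revertant array, squares for the gene-trapped array and a line joining each pair. Dashed and dotted lines are the background limits of 24.99 and 22.26. Fos and Jun slope down most steeply, to 0.597 and 0.599 of the revertant signal, and Fosl1 slopes up. Heights of different probes are not comparable as RNA levels.

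Fos, the founding member of the family and the partner that gives AP-1 its strongest DNA binding with Jun, gave 6802.77 as spot signal in revertant and 4058.13 in gene-trapped cells. The gene-trapped cells were the lower ones, at 0.597 of the revertant signal. After normalization the log2 signals were 12.55 and 12.13, a difference of -0.43 (1.34-fold lower). That placed Fos at percentile 5.93 of all genes above background. Among the 500 genes nearest in brightness, whose differences had an SD of 0.44, it was at percentile 11.8, and 26.0% of them differed by at least as much in either direction. The Fos difference was larger than the spread of control spots, and more than 1 SD below the median of equally bright genes, which was 0.11.

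Fosb, a Fos relative with an activation domain of its own, had signals of 74.36 (revertant) and 69.2 (gene-trapped). The raw signal was slightly lower in gene-trapped cells and the normalized difference was 0.17 (1.13-fold higher), so the sign came from the scaling. It was -0.10 without scaling and -0.25 with the local background subtracted. No direction is given for Fosb.

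Fosl1 encodes Fra-1, a Fos relative without that activation domain and itself known as an AP-1 target. Its signal was 45.71 in revertant and 62.69 in gene-trapped cells, the only member of the Fos family with the higher raw signal in gene-trapped cells. The difference of 0.49 (1.41-fold higher) was the largest positive one among the members. It lay at percentile 96.2 of all genes and 99.0 of the 500 genes of similar brightness, of which 2.2% differed by at least as much. Both spots were dim, at 2.04 and 3.12 times the blank mean, and after subtracting that mean the signals were 23.25 and 42.58, a ratio of 1.83. In the authors' deposited table the values were 15.305 and 36.357, which is 2.38-fold higher. The sign of Fosl1 was positive under all 9 alternative settings, with a range of 0.17 to 1.25.

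Fosl2, which encodes Fra-2, was the dimmest against its blanks. Its signals were 33.59 in revertant and 32.36 in gene-trapped cells, or 1.5 and 1.61 times the blank mean. The difference was 0.10 with scaling and -0.054 without, both below the 0.108 of the control spots. It was 0.22 with offset 16, 0.29 with 75th percentile scaling and 0.51 in the authors' deposited table. The size and sign of the Fosl2 difference thus depended on the setting.

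Jun, the partner of Fos and a substrate of the JNK kinases, showed nearly the same difference as Fos. Its signals were 4592.72 in revertant and 2750.68 in gene-trapped cells, and the gene-trapped signal was again the lower one, at 0.599 of the revertant. The normalized log2 signals were 12.03 and 11.60, a difference of -0.43 (1.34-fold lower), at percentile 5.98 of all genes and 12.6 of those of similar brightness. Of the latter 27.2% differed by at least as much. In the authors' deposited table Fos was 1.29-fold lower and Jun 1.29-fold lower. Genes of similar brightness to Jun had a median difference of 0.10, on the other side of 0.

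Junb, a Jun protein with weaker activation that can restrain Jun and is itself induced by many growth factors, went the other way. Its signals were 729.37 in revertant and 820.86 in gene-trapped cells, so the raw signal was higher in gene-trapped cells although that array was dimmer at its median. The difference was 0.40 (1.32-fold higher), at percentile 94.2 of all genes and 85 of those of similar brightness. It was 0.17 without scaling and 0.56 in the authors' deposited table, positive under all 9 alternatives.

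The 3 remaining members differ in role: Egr1 is a zinc finger transcription factor induced through ERK and serum response factor, Ier2 a small nuclear protein, and Dusp1 a phosphatase that switches off MAP kinases. Egr1 had signals of 815.8 (revertant) and 852.18 (gene-trapped) and a difference of 0.30 (1.23-fold higher). For Ier2 they were 1104.77 and 1074.47, with 0.19 (1.14-fold higher). For Dusp1 they were 1076.6 and 1080.2, with 0.24 (1.18-fold higher). The raw signals of these 3 genes were nearly level, and 42.6% to 59.6% of genes of similar brightness differed by at least as much. Without scaling Egr1 was at 0.06, Ier2 at -0.04 and Dusp1 at 0.0048. Their position above 0 is therefore a statement relative to the median gene.

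**Figure D2:**
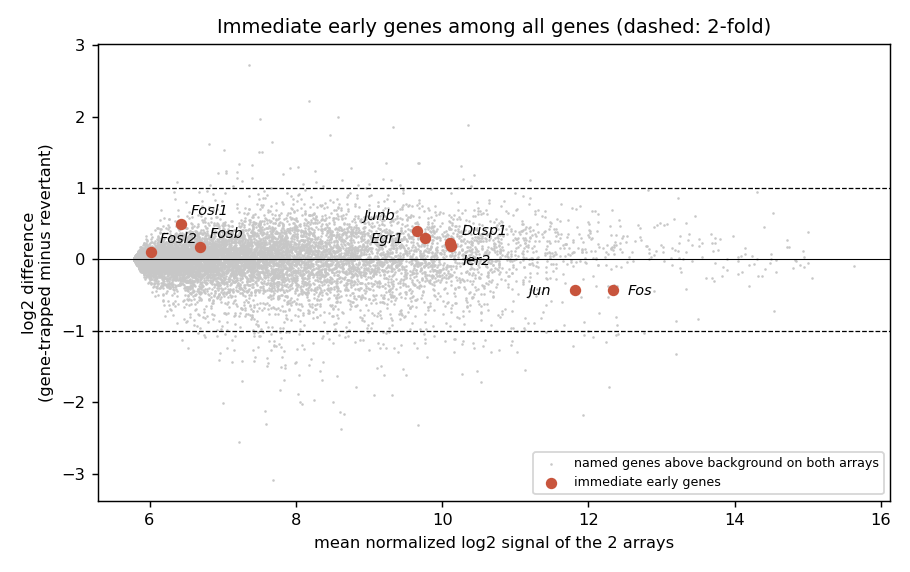
Log2 difference, gene-trapped minus revertant (vertical), against the mean normalized log2 signal of the 2 arrays (horizontal), for all 13753 named genes above background on both arrays (grey) and the 9 immediate early genes (red), with dashed lines at 2-fold. Jun and Fos lie below 0 at the bright end at -0.43 each, the other 7 lie between 0.10 and 0.49, and none reaches a dashed line.

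A difference between 2 members does not depend on a constant added to every gene, so the choice of scaling bears less on it. Junb minus Fos was between 0.70 and 0.93 over the main setting and 9 alternatives, and Junb minus Jun between 0.83 and 2.23. Egr1 minus Fos ran from 0.41 to 0.82 and Fosl1 minus Fos from 0.42 to 1.62. In each of these contrasts the sign was the same under every setting tried. Each subtracts Fos or Jun, the lowest members in the main setting, so a positive sign there was fixed in advance. The settings rework the same 2 arrays and are not independent checks. Median and 75th percentile scaling give equal contrasts by construction. Dusp1 minus Jun was between 0.66 and 2.47 and Ier2 minus Jun between 0.62 and 2.35. Fosb minus Fos reached -0.0003 with the local background subtracted and was at least 0.57 otherwise. Fos minus Jun was between -0.01 and 0.04 except with the local background subtracted, where it was 1.53.

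**Figure D3:**
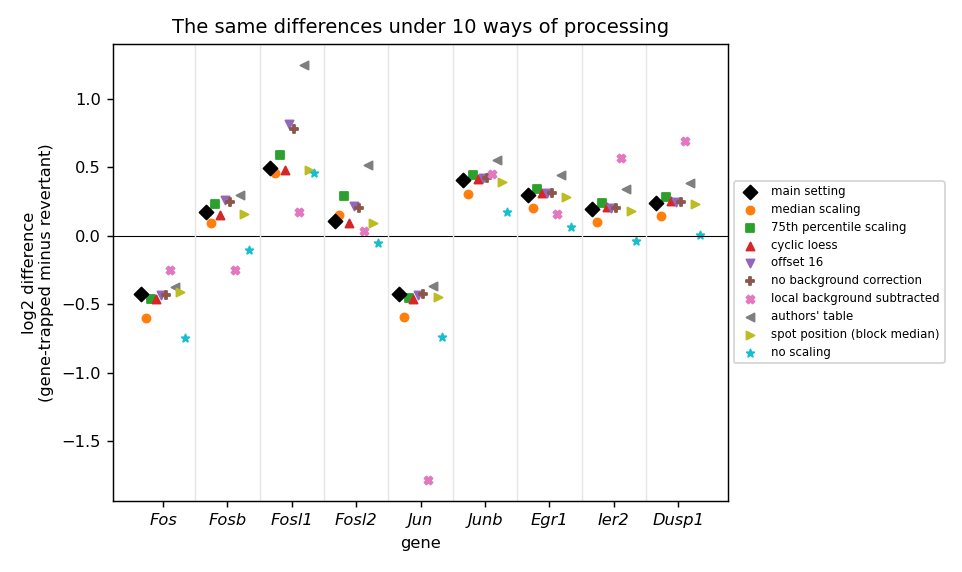
Log2 difference, gene-trapped minus revertant, of each of the 9 immediate early genes under the main setting (black diamonds) and 9 alternatives (one symbol each). Fos and Jun are below 0 throughout, Fosl1, Junb, Egr1 and Dusp1 above 0, and Fosb, Fosl2 and Ier2 have both signs. The farthest points are Jun with the local background subtracted (-1.78) and Fosl1 in the authors' table (1.25).

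The scanner's local background around some of these spots was high. Around Fos it was 5749.0 (revertant) and 3089.19 (gene-trapped), or 84.51% and 76.12% of the spot. Around Jun it was 1689.33 and 1903.16, or 36.78% and 69.19%. At blank spots the local background had medians of 14.17 and 15.63. The main setting does not subtract it. With subtraction the Fos difference was -0.25 and the Jun difference -1.78. Both signs held, but both sizes moved by more than the control spots' spread of 0.108, Jun by far the more. Subtraction moved Dusp1 from 0.24 to 0.69, Ier2 from 0.19 to 0.56 and Egr1 from 0.30 to 0.16. It moved Fosl1 from 0.49 to 0.17 and Fosb from 0.17 to -0.25. Fos and Jun were the 2 lowest members in 8 of 9 alternatives, the exception being that subtraction. The part of the local background in these differences was not tested.

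The other AP-1 and Maf genes of the leucine zipper class had no common direction. Of 12 listed, 10 were above background on both arrays, with 5 above 0, 5 below and a median of -0.01. Jundm2, the older name of Jdp2, which encodes a repressor that dimerises with Jun, had signals of 325.4 (revertant) and 76.8 (gene-trapped). Its difference of -1.44 (2.72-fold lower) was the only one of the list past 2-fold, and it ranged from -2.08 to -1.43 over the alternatives. Atf3, a stress-induced partner of Jun, was at -0.49, and the small Maf gene Maff at 0.53.

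Other immediate early genes were also split. Of 28 listed, 25 were above background on both arrays, 16 above 0 and 9 below, with a median of 0.03. Plk2, a polo-like kinase gene induced by serum and also by p53, had signals of 191.83 (revertant) and 398.98 (gene-trapped) and was 2.36-fold higher (1.24). Cyr61, now Ccn1, a secreted matrix protein of fibroblasts among other cells, had 1979.87 and 746.35 and was 2.21-fold lower (-1.14). Axud1, now Csrnp1, was at 0.55. Plk2 and Cyr61 kept their signs under each alternative, at 0.83 to 1.54 and -1.41 to -0.91.

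Upstream of these promoters, the transcription factors that read the stimulus were close to 0. Of 13 listed, 11 were measured above background on both arrays, none reached 1.5-fold in the main setting, and the median was 0.03. The 3 with the largest differences were Stat3 at -0.22, Creb1 at 0.21 and Atf1 at 0.20. Crem was above background on the gene-trapped array only and at its limit, so no difference can be read.

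In the Ras-ERK cascade 15 genes were measured, 7 above 0 and 8 below, with a median of -0.0042. Map2k1, which encodes the ERK kinase MEK1, had signals of 1114.93 (revertant) and 358.11 (gene-trapped). The gene-trapped signal was far the lower, a difference of -1.30 (2.47-fold lower), and it stayed between -2.36 and -1.28 over the alternatives. Mapk3, which encodes ERK1, had 704.68 and 335.08, a difference of -0.75 (1.68-fold lower), between -1.07 and -0.72. Nras was at -0.57 but at 0.26 with the local background subtracted. Rps6ka1, an ERK-activated kinase gene, had 2 probes that disagreed, 0.04 for the brighter and -1.06 for the other.

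In the JNK and p38 cascades 16 genes were measured, none reached 1.5-fold either way in the main setting, and the median was 0.01. Map3k7, which encodes TAK1, was at 0.54, Mapk14, which encodes p38 alpha, at 0.38 and Map2k4 at 0.30. Of 14 measured MAP kinase phosphatases and feedback inhibitors, 11 lay above 0 and 3 below, with a median of 0.10, beside 53.3% of all genes above 0. Without scaling 5 lay above and 9 below, with a median of -0.15. Dusp2 was at 0.57, Spred1 at 0.55 and Dusp10 at 0.49, and 0 of the 14 reached 1.5-fold in the main setting. Among 8 genes for turnover and cofactors of Jun, Fos and Egr1, 7 lay above 0, with a median of 0.13. Without scaling 2 did, with a median of -0.07. Fbxw7, a ubiquitin ligase subunit that targets Jun, was at 0.35, the ubiquitin ligase gene Itch at 0.26 (-0.27 with the local background subtracted) and the Egr1 co-repressor gene Nab2 at 0.21.

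Genes with described AP-1 elements had no direction that held without scaling. Of 15 listed, 10 were above background on both arrays. In the main setting 7 lay above 0 and 3 below, with a median of 0.18 and 0 past 1.5-fold. Without scaling 5 lay above and 5 below, with a median of -0.0083. The matrix protease inhibitor gene Timp1 had signals of 61.67 (revertant) and 83.74 (gene-trapped) and a difference of 0.55. The growth factor gene Hbegf was at 0.45 and Spp1, which encodes osteopontin, at 0.37. In the authors' deposited table the largest differences of the 10 were Mmp3 at -1.27, Timp1 at 1.07 and Lif at 1.05. These spots were dim, and the main setting understates the folds of dim spots. Plau and Cd44 were at the background limit of the gene-trapped array, with bounds that allow no difference to be read.

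**Figure D4:**
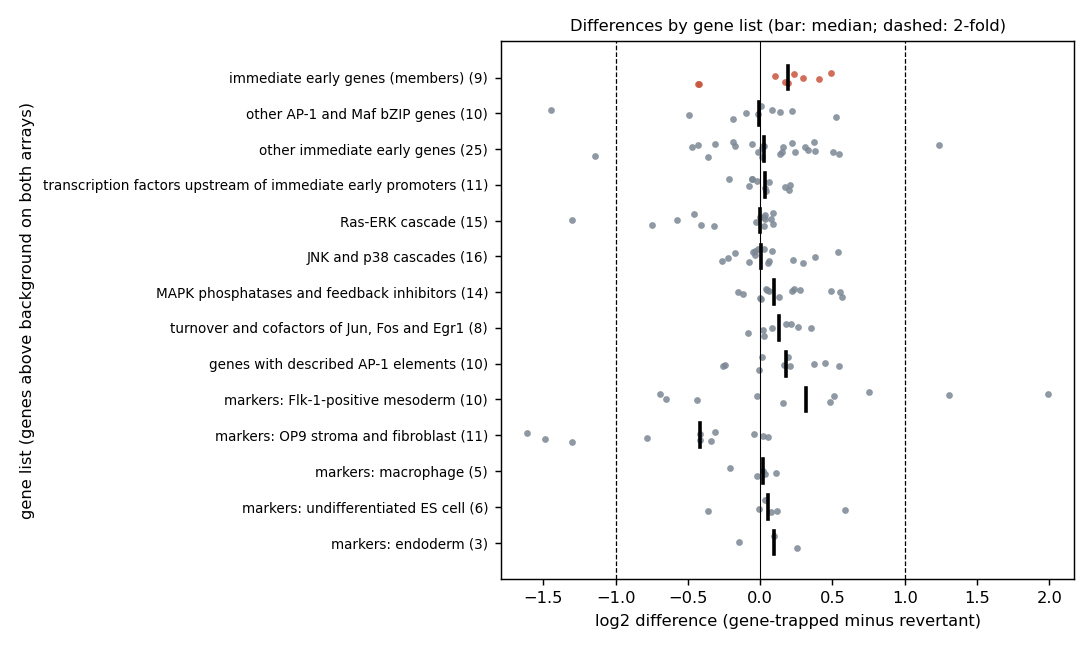
Log2 difference, gene-trapped minus revertant, of each gene above background on both arrays (points), by gene list, with the number of genes in parentheses, the median as a bar and 2-fold as dashed lines; vertical scatter within a list has no meaning. The pathway lists have medians between -0.01 and 0.18, and the list of OP9 stroma and fibroblast markers lies lowest, with a median of -0.41.

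Most listed markers of the stromal cells used in the coculture were lower in gene-trapped cells. Of 12 OP9 stroma and fibroblast markers, 11 were above background on both arrays, with 9 below 0, 3 at least 2-fold lower (beside 1.08% of all genes) and 0 higher (beside 0.334%). The 2 others, Lum at 0.055 and Thy1 at 0.02, lay slightly above 0. The summed signal of the 11 net of the blanks was 5554.7 in revertant and 1772.7 in gene-trapped cells. Most of both sums came from Acta2 (spot signals 3602.89 and 1194.98) and Col5a1 (1085.74 and 273.83). Col5a1 was at -1.61, Col1a1 at -1.49 and Acta2 at -1.30, and Dcn, a defining stromal marker, was not above background on either array. The part of stromal cells in the differences was not tested. In sorted bulk RNA, fewer cells of a type and less RNA per cell cannot be told apart.

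All 10 mesoderm markers were above background on both arrays, beside 13753 of all 16444 named genes. Being above background therefore does not by itself show which cells were present. The summed net signals of these markers were 4156.0 (revertant) and 5031.4 (gene-trapped). Within that list Mixl1 was at 1.99, Etv2 at 1.30 and T at 0.76, while Kdr, the gene of the sorting marker, was at -0.65 and at -2.04 with the local background subtracted. These markers did not share a direction either. Macrophage markers summed to 169.7 and 125.7 over 5 genes, with Laptm5 at -0.21, Cd68 at 0.11 and Tyrobp at 0.03. Ptprc was not above background on either array, and Cd14 was at the limit of the gene-trapped array. Markers of undifferentiated ES cells summed to 1684.2 and 1466.6 over the 6 of 8 listed genes with a probe. Tbx3 was at 0.58, Klf4 at -0.36 and the dim Zfp42 at 0.12. Most of both sums came from Tbx3 and Klf4, and Klf4 is also counted among the other immediate early genes above. Of 7 endoderm markers 3 were above background on both arrays, Gata6 at 0.26, Sox17 at -0.14 and Foxa2 at 0.10. With 2 arrays no likeness of pattern across samples can be measured, so no other gene is named for resembling these.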

How the data were processed

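Total RNA of 2 samples was amplified, labelled with Cy5 and hybridised to 1 TORAY oligonucleotide array each, per the labels' protocols. The authors deposited scanner files with a linear intensity, the spot median at 635 nm without background subtraction, per the file headers, and a table of processed intensity values whose processing is not given in the sources used here. That table is a straight line of the scanner values with a median of 25.0 in each column.

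Intensities were corrected with normexp (offset 50) in limma 3.58.1 under R 4.3.3 and quantile-normalized, and differences were taken on the log2 scale. Python 3.11.15, pandas 2.3.3 and matplotlib 3.10.9 did the rest. The steps were tested on simulated data. Flagged and blank spots entered the normexp fit and were left out after it. Spots of 1 probe were averaged, and the brightest probe was used per gene. Of 23471 probes, 16629 had a single gene name in the annotation, which can be old, and 6842 did not.

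Described are all members, AU019823, up to 3 genes per list with the largest differences, and list genes above background on 1 array. Kdr, Dcn, Ptprc and Rps6ka1 are named outside that rule, as the sorting marker, as defining markers and for probes that disagree, after their values were seen. So are Lum and Thy1, as the stromal markers above 0, and Mmp3 and Lif, for their values in the authors' table. The members and the 13 other lists were chosen with earlier results of these data known. Alternatives were 11 planned and 2 added after seeing the data, spot position and no scaling. Promoters and their build are from a RefSeq table.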

Additional observations from a re-analysis of the deposited data

Results flagged for a closer look

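The scanner's local background, which the main setting does not use, was above that of blank spots around the immediate early gene spots, least so for Fosb, Fosl1 and Fosl2, where it lay between 22.17 and 39.8. Its median over the 9 spots came to 366.94 for revertant and 104.91 for gene-trapped cells. Blank spots had medians of 14.17 and 15.63. Around Fos in revertant cells it was 5749.0.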

How the results depend on the processing

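No paired analysis was possible because there was 1 array per group. The share of genes past 2-fold was 1.41% in the main setting, 2.36% with offset 16, 3.38% with the local background subtracted, 2.26% without background correction, 6.03% in the authors' table, over 14203 genes, and 3.99% without scaling; at 1.5-fold it was 5.80%. Of the members, 1 (Jun) was at least 2-fold lower with the local background subtracted and 1 (Fosl1) at least 2-fold higher in the authors' table. Their median was 0.38 in the authors' table and -0.0401 without scaling, against 0.19. Of 90 member values under alternatives, 86 kept the sign of the main value and 28 moved by more than the control spots' spread of 0.108; 6 of 9 members kept 1 sign throughout, the exceptions being Fosb, Fosl2 and Ier2. Of 400 values of 40 other genes named by the rule, 387 kept the sign, and 29 of the 40 kept 1 sign throughout. The 90 and 400 values include the mean of a gene's probes as 1 of 10 alternatives. That mean equalled the main value for each of these genes, so it adds no check. Scaling to the 75th percentile moved the median gene to 0.15. Low signal over background limits Fosl1 and Fosl2, and the number of arrays limits every difference.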
